A study of Mus musculus with 2 samples.

Results

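The genes described here code for 10 transcription factors that are switched on by small molecules. They are the glucocorticoid receptor Nr3c1, the retinoic acid receptors Rara and Rarg, their partners the retinoid X receptors Rxra and Rxrb, the vitamin D receptor Vdr, the fatty acid sensors Pparg and Ppard, the oxysterol sensor Nr1h2 (LXR beta) and Ahr, the aryl hydrocarbon receptor. They were taken as a list of names, with earlier results of these data known, and all 10 were found among 55536 annotated genes. They were read in polyA plus RNA-seq data for regulatory T cells of 1 adult male mouse, 4 months old, of the strain Foxp3CreERT2 x Rosa26YFP, in which Foxp3, the defining factor of these cells, drives an inducible Cre and Rosa26 carries a fluorescent reporter. The labels state that this primary cell originated from a bone marrow hematopoietic cell, and name no treatment, sort or gate. RNA was sheared on a Covaris instrument, and 2 libraries of the same biological sample, technical replicates called library 1 and library 2, form the only group. No condition is compared. Every SD below is a spread between libraries of 1 animal, and every p-value compares these libraries. The exact binomial p-values allow for counting error only.

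Library 1 held 15821875 and library 2 held 16153671 estimated counts on annotated genes, where an estimated count is a number of fragments divided by a model among the transcripts they could come from. Levels are given in TPM, the deposited transcript level per length, scaled to a fixed total in each library, and a gene counts as expressed if it reached 1 TPM in each library. All 10 markers of regulatory T cells were expressed, with summed levels of 5630 and 5760 TPM in library 1 and library 2. Summed levels of other lists were far lower, at 13.0 and 16.2 TPM for CD8 T cells, 35.1 and 35.3 for B cells (of which Cd79b made 33.16 and 33.3), 2.28 and 2.29 for myeloid cells and 3.24 and 4.33 for dendritic cells. In RNA from many cells, a receptor present in few cells and a receptor at a low level in all cells cannot be told apart.

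Nuclear receptors carry a DNA-binding domain and a pocket for a fat-soluble ligand, so that hormone, vitamin or lipid binding exchanges corepressors for coactivators at the genes they occupy. The glucocorticoid receptor waits in the cytosol on a chaperone complex and acts largely as a homodimer, whereas the retinoic acid, vitamin D, fatty acid and oxysterol receptors bind DNA as heterodimers with a retinoid X receptor. Ahr belongs to another protein family: it also rests on chaperones in the cytosol, and after binding planar aromatic molecules, some of them from diet and microbes, it pairs with Arnt. In T cells, retinoic acid is known for inducing gut-homing receptors, and Pparg for its place in regulatory T cells of fat.

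Promoter windows are shown for genes whose counts were divided among annotated starts in different ways: Rarg with an upstream and an internal start in use, Rxra with nearly all counts on its upstream start, Pparg with an internal start, and Nr1h2 as the most abundant receptor with an entry. Each is the 120 bases before a RefSeq start on build GRCm38.p6, written 5′ to 3′ along the gene's strand, and none overlaps an annotated exon of the genes described. Capitals mark GGGCGG (the GC box bound by Sp1-type factors), AGGTCA (the hexamer that nuclear receptors recognise) and GCGTG (the core that Ahr and Arnt recognise), on either strand.
Rarg, upstream start, chr15:102257523-102257642, minus strand: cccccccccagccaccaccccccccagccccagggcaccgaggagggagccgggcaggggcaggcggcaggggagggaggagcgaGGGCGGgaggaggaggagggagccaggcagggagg
Rarg, internal start, chr15:102246501-102246620, minus strand: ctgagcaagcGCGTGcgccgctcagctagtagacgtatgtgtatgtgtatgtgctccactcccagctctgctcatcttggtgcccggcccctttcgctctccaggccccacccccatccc
Rxra, upstream start, chr2:27677081-27677200, plus strand: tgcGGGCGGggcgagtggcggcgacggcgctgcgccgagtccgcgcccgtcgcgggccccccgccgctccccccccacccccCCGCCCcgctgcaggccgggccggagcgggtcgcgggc
Rxra, internal start, chr2:27709172-27709291, plus strand: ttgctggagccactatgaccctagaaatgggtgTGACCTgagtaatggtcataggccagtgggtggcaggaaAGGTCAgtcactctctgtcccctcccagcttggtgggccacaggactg
Pparg, internal start, chr6:115421946-115422065, plus strand: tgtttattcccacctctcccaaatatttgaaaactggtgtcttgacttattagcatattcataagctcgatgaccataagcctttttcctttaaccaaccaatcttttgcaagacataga
Nr1h2, main start, chr7:44553966-44554085, minus strand: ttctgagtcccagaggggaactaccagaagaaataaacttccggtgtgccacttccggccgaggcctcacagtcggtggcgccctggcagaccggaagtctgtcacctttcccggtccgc

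The upstream Rxra window held 23 CG dinucleotides, more than 99.1% of the 32851 RefSeq windows of this length, whose median was 3. The internal Rxra window held 0, and the internal Pparg window held 1. The Rarg windows were closer to each other, with 5 CG dinucleotides at the upstream start and 7 at the internal start, and the Nr1h2 window held 8. GGGCGG was present in the upstream windows of Rarg and Rxra and occurs in 26.5% of all windows. GCGTG was present at the internal Rarg start and occurs in 17.8%, and AGGTCA was present at the internal Rxra start, on both strands, and occurs in 6.91%. TATAAA, the TATA box, was also searched on both strands. It was in none of the windows printed and occurs in 6.34% of all windows. These matches describe letters, not binding.

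Of the 10 genes, 9 were expressed, beside 46.5% of 22028 protein-coding genes. Their median level was 6.33 TPM, against 0.625 TPM over all protein-coding genes and 18.5 TPM over the 10251 that were expressed. The receptor mRNAs were thus mostly present at low to moderate levels, with the glucocorticoid receptor highest on this scale and the vitamin D receptor below the threshold. The plot of levels by library shows the order.

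**Figure D1:**
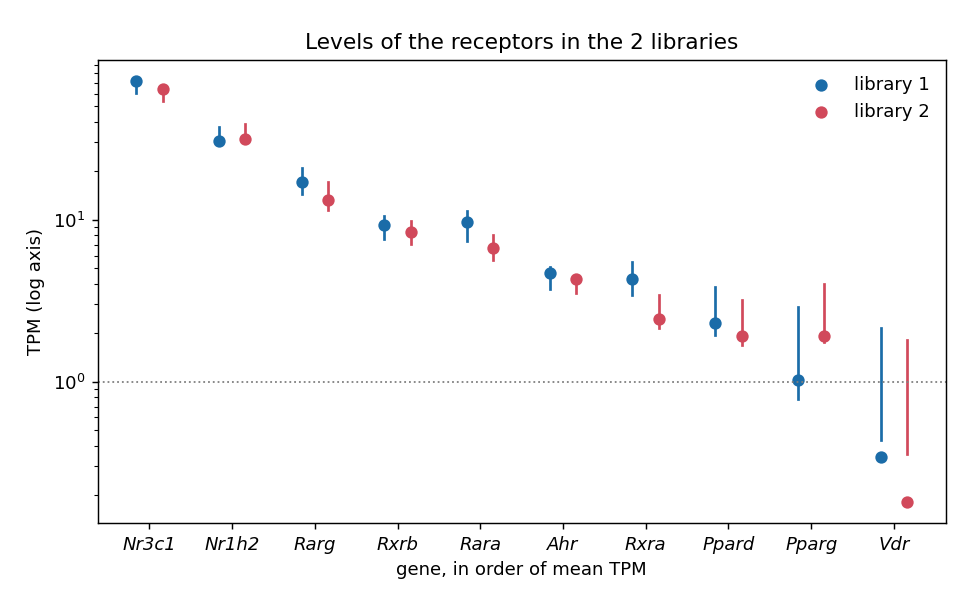
Level of each of the 10 genes in TPM (log axis) in library 1 and library 2, with vertical lines for the credibility interval deposited by the quantifier and a dotted line at 1 TPM. Nr3c1 lies highest, at 71.89 and 63.6 TPM, and Vdr is the only gene below the dotted line in both libraries, with points under their own intervals, while those of Nr3c1 lie just above theirs.

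Nr3c1 (ENSMUSG00000024431.15, chr18:39410545-39519421, minus strand) codes for the receptor of corticosterone, the main glucocorticoid of the mouse. It stood at 71.89 TPM in library 1 and 63.6 TPM in library 2, a mean of 67.7 ± 5.86 TPM (SD, n = 2 libraries, as for every SD below), from 3056 and 2824 estimated counts. That was 47.6% and 47.5% of the summed TPM of the 10 genes, and more than 81.8% of expressed protein-coding genes. It was also 14.7 and 13.0 times the level of Nr3c2, the mineralocorticoid receptor, which binds the same hormone and stood at 4.89 and 4.91 TPM.

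The level of Nr3c1 depends on which of its 9 annotated transcripts are accepted. Nr3c1-203, a complete coding transcript of 6436 bases, took 60.5% and 60.9% of the estimated counts of the gene but 32.4% and 32.5% of its TPM. Nr3c1-209 is a fragment of 377 bases with an incomplete coding sequence. It took 21.6% and 26.9% of the TPM from 63.18 and 73.26 counts, because TPM divides by length. Nr3c1-208, also incomplete, took 20.2% and 25.2%, and the complete Nr3c1-201 took 17.4% and 7.28%. Complete coding transcripts together gave 35.8 and 29.4 TPM, 49.8% and 46.3% of the total, against 24.1 and 24.0 TPM for Nr1h2. In the smaller gene tables, which hold whole-number counts of the same libraries from an earlier alignment, counts per kilobase of exons scaled like TPM were 132 and 122 for Nr3c1 and 122 and 131 for Nr1h2, so the lead of Nr3c1 over Nr1h2 did not hold there in library 2.

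All 6 chaperone genes of the glucocorticoid receptor were expressed. Hsp90ab1, which holds the receptor in its hormone-binding shape, was the highest at 855 ± 22.2 TPM, and Ptges3, the co-chaperone p23, followed at 256 ± 9.19. The immunophilins that compete for the complex differed in level, Fkbp4 (which favours hormone binding and nuclear transport) at 52.2 ± 0.127 TPM and Fkbp5 (which lowers hormone affinity) at 14.5 ± 1.78. Hsp90aa1 stood at 128 ± 9.96 and Stip1, which links Hsp70 to Hsp90, at 84.0 ± 4.19. In the smaller gene tables Ptges3 had only 29 and 45 counts, beside 5149.14 and 5639.17 estimated counts. Hsp90aa1 had 315 and 357 there, and Stip1 1146 and 1277. The place of Ptges3 therefore rests on the estimated counts alone.

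Hsd11b1, the enzyme that regenerates active glucocorticoid inside cells, was present at 136.02 and 126.78 TPM, from 2135 and 2159 counts. Hsd11b2, which inactivates the hormone, had 1 count in each library, below the 3 counts taken here as the limit of detection (0.19 and 0.186 CPM, counts scaled to the library total). Hsd11b1 thus stood above the receptor gene itself in both libraries.

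Of 8 genes known to respond to glucocorticoids, 7 were expressed. Tsc22d3, which codes for the leucine zipper protein GILZ, was the highest at 431.74 and 438.94 TPM, and Klf9 the lowest of the expressed at 1.83 and 3.22 TPM. Zbtb16, also inducible by glucocorticoids, had 2 and 0 counts. Sgk1 stood at 16.9 ± 0.636 TPM, Ddit4 at 14.5 ± 2.96 and Per1 at 5.12 ± 0.304. Members of this list differed between libraries in opposite directions: Dusp1, a phosphatase of MAP kinases that is also an early response gene of stress, had 1018 and 381 counts, and Klf9 had 88 and 186. Both passed the test described further on (exact binomial test, adjusted p = 2.31e-67 and 2.54e-07), in a comparison of libraries and not of conditions. In the smaller gene tables Dusp1 kept its direction, with 422 and 120 counts. Klf9 had only 3 and 1 counts there, so its difference rests on the estimated counts alone.

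The retinoid X receptors are the shared partners of 6 of the receptors described here. Rxrb (ENSMUSG00000039656.17, chr17:34031812-34038399, plus strand) stood at 9.23 and 8.36 TPM, 8.79 ± 0.615. Rxra (ENSMUSG00000015846.14, chr2:27676440-27762957, plus strand) stood at 4.32 and 2.45 TPM, 3.39 ± 1.32. The RXR transcripts came mainly from Rxrb, which made 68.1% and 77.3% of the summed RXR level, and Rxrg, the RXR of muscle and brain, had 0 counts in both libraries and in both kinds of gene table. The summed level of the partners Rara, Rarg, Vdr, Pparg, Ppard and Nr1h2 was 61.0 and 55.2 TPM, which is 4.5 and 5.11 times the 13.6 and 10.8 TPM of the RXR genes.

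Rxra was the more variable of the pair. It had 226 and 155 estimated counts, and the difference passed the test (log2 ratio of library 2 over library 1 -0.57, exact binomial test, adjusted p = 0.00123). Its counts lay almost wholly on Rxra-201, the complete transcript from the CG-rich upstream start, which took 97.9% (95% exact interval 94.9% to 99.3%) and 100% (97.6% to 100%) of them. Rxra-204, an incomplete transcript of 628 bases, reached 15.2% of the TPM in library 1 from 4.72 counts and was at 0 in library 2, and the internal start shown above had 0 counts in both. Such intervals cover counting error only, not errors in dividing fragments among transcripts. Rxrb had 218 and 229 counts. Rxrb-202, a complete transcript, took 72.5% and 62.0% of its TPM, the complete Rxrb-203 took 4.05% and 19.1%, and the retained-intron transcript Rxrb-204 took 10.1% and 4.72%. Neither of the complete transcripts has a 50-base stretch of its own that separates it from the other transcripts of the gene, so their shares rest on the model.

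Rarg (ENSMUSG00000001288.15, chr15:102234938-102257517, minus strand) was the third gene in level, at 17.01 and 13.18 TPM, 15.1 ± 2.71. Rara (ENSMUSG00000037992.16, chr11:98927818-98974942, plus strand) stood at 9.66 and 6.65 TPM, 8.16 ± 2.13. Rarg made 63.8% and 66.5% of the summed level of the retinoic acid receptors, above Rara in each library. Rarb, which is itself induced by retinoic acid in many tissues, had 0 estimated counts in both libraries, but 9 and 13 counts in the smaller gene tables, where Vdr had 4 and 2. Whether Rarb was expressed at a low level therefore depends on the table.

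The estimated counts of the retinoic acid receptors differed less between the libraries than their TPM. Rarg had 425 and 407 counts (log2 ratio -0.09, exact binomial test, adjusted p = 0.575) and Rara 296 and 255 (log2 ratio -0.25, adjusted p = 0.144). The deposited effective length of Rarg was 2009 bases in library 1 and 2369 in library 2, and that of Rara 2464 and 2943, so the TPM of each was divided by a longer transcript mixture in library 2.

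Rarg counts lay mainly on transcripts of 2 starts, in nearly the same proportion in both libraries. Retinoic acid receptor genes are known to have 2 promoters whose products differ at the N terminus. Rarg-202, the complete transcript from the internal start shown above, took 66.4% (95% exact interval 61.6% to 70.8%) and 67.8% (63.0% to 72.3%) of the estimated counts. The transcripts from the upstream start, mainly the complete Rarg-201, took 28.7% (24.4% to 33.3%) and 29.7% (25.3% to 34.4%). These intervals do not overlap within either library. The assignment had sequence to rest on, since 440 and 550 windows of 50 bases occur in the internal and the upstream transcripts alone. On the TPM scale, Rarg-202 took 49.98% and 60.19%, Rarg-201 18.5% and 24.2%, and Rarg-204, an incomplete transcript of 423 bases, 25.3% and 15.6% from 20 and 10 counts.

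The starts of Rara were not stable between the libraries. Rara-207 took 24.1% and 63.6% of the estimated counts, and 19.3% and 60.8% of the TPM, but only 1 window of 50 bases sets it apart from the other Rara transcripts. Rara-204 went from 32.4% to 23.4% of the TPM, Rara-202 from 24.0% to 15.9%, Rara-203 from 12.5% to 0% and the short Rara-206 from 11.9% to 0%. No leading Rara start is given, since the leading transcript was Rara-204 in library 1 and Rara-207 in library 2.

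**Figure D2:**
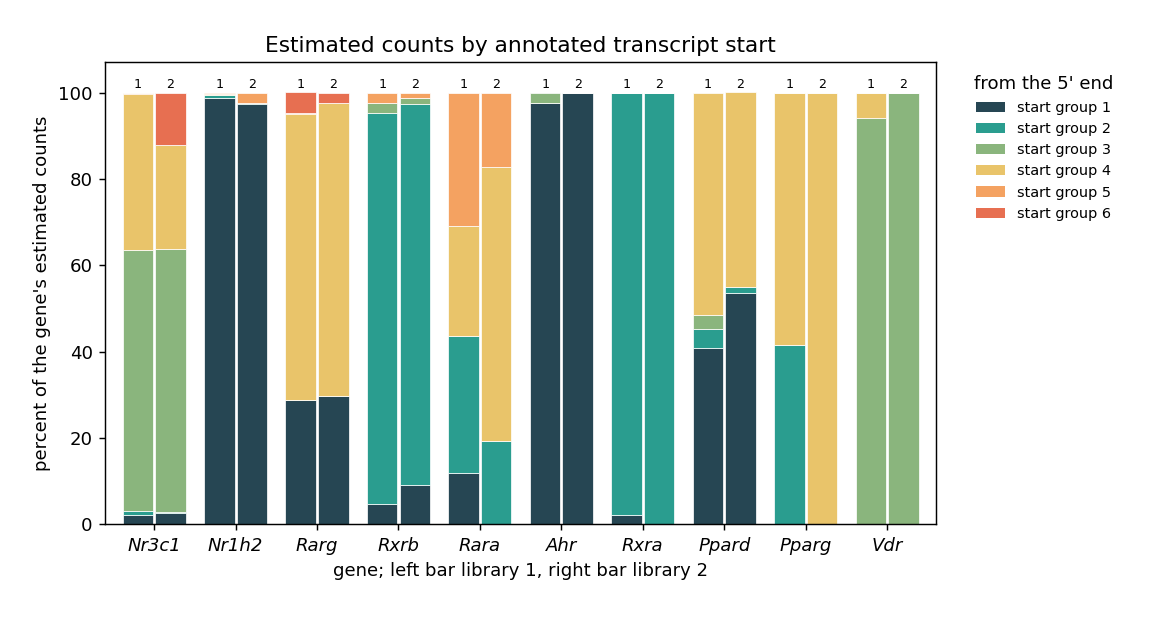
Percent of each gene's estimated counts on transcripts grouped by annotated start (starts within 300 bases of the previous start form 1 group, numbered from the 5′ end of the gene), with library 1 as the left bar and library 2 as the right bar. The Rarg bars match between libraries, with 66.4% and 67.8% on group 4, whereas the Rara bars differ, with 25.4% and 63.6% on group 4.

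Genes that handle retinoids were mostly below the threshold for an expressed gene. Of 13, 4 were expressed, led by Dhrs3, a retinal reductase, at 54.5 and 47.86 TPM, followed by Rdh11 (13.28 and 14.27), the retinol transporter Stra6 (3.52 and 2.81) and the retinol dehydrogenase Rdh10 (1.43 and 1.69). The retinal dehydrogenases that make retinoic acid were under the threshold: Aldh1a1 had 0 counts in both libraries, Aldh1a2 had 7 and 0 and Aldh1a3 had 8 and 7. Of 9 genes known to respond to retinoic acid, 4 were expressed, Dhrs3 again among them. Itga4, the alpha chain of a gut-homing integrin, was the highest at 129.96 and 120.12 TPM, Ccr9, the receptor that guides T cells to the small intestine, stood at 20.69 and 20.82, and Tgm2 was the lowest of the expressed at 1.32 and 2.32. Cyp26a1, which degrades retinoic acid and is a standard readout of it, had 0 counts. Its paralog Cyp26b1, on both retinoid lists, was detected below the threshold, at 0.55 and 0.47 TPM from 29 and 26 counts.

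Nr1h2 (ENSMUSG00000060601.13, chr7:44549616-44553951, minus strand) was the second gene in level and the least variable, at 30.68 and 31.35 TPM, 31.0 ± 0.474, from 679 and 705 counts (log2 ratio 0.02, exact binomial test, adjusted p = 0.896). It made 93.8% and 96.7% of the summed level of the oxysterol receptors. Its paralog Nr1h3 (LXR alpha), known mainly from liver and macrophages, stood at 2.02 and 1.07 TPM, from 38 and 13 counts, a difference that passed the test (log2 ratio -1.54, exact binomial test, adjusted p = 0.00308). Of 8 myeloid markers 0 were expressed and Csf3r was at 0. Their summed level was level between the libraries, as given above, but single markers went both ways: Csf1r (44.24 and 11.75 counts) and Fcgr3 (11 and 1) were higher in library 1 and passed, Itgam was level (21 and 20), and Adgre1 (5 and 12) and Lyz2 (0 and 4) had more counts in library 2. The B cell marker Ms4a1 also passed as higher in library 1, with 30 and 3 counts. Other B cell markers did not follow it: Cd79b was level (478 and 503), and Cd79a (14.95 and 30) and Pax5 (3 and 6) had more counts in library 2. The part of these cells in the Nr1h3 and Rxra differences was not tested.

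The 18 transcripts of Nr1h2 overlap strongly. Those from the main start took 98.7% and 97.3% of the estimated counts, but no 50-base stretch separates its leading complete transcripts. Nr1h2-202 took 29.9% and 25.4% of the TPM, Nr1h2-201 20.6% and 36.3%, Nr1h2-204 21.4% and 13.2%, and the retained-intron Nr1h2-205 11.5% and 9.12%. The start is therefore better determined than the transcript.

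Of 8 genes known to respond to the oxysterol receptors, 7 were expressed. Abcg1, which exports cholesterol from cells, stood at 131.23 and 125.64 TPM, and Smpdl3a, a secreted phosphodiesterase, at 116.88 and 117.71. Lpcat3, which remodels phospholipids, was at 25.3 ± 0.615, Srebf1, a regulator of lipid synthesis, at 17.0 ± 2.33, Mylip, which degrades the LDL receptor, at 14.5 ± 0.417 and Apoe at 5.24 ± 0.566. Abca1, the other sterol exporter of the list, was the lowest of the expressed at 5.28 and 3.4 TPM and had 671 and 453 counts (log2 ratio -0.6, exact binomial test, adjusted p = 4.63e-10). Scd1 had 6.12 and 1.01 counts.

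Ppard (ENSMUSG00000002250.16, chr17:28232700-28301474, plus strand), the broadly expressed fatty acid sensor, stood at 2.31 and 1.91 TPM, 2.11 ± 0.283, from 68 and 73 counts. Much of that signal did not come from coding transcripts. Ppard-208, annotated as a retained intron, took 51.5% (95% exact interval 39.0% to 63.8%) and 45.1% (33.5% to 57.3%) of its estimated counts and 33.2% and 36.0% of its TPM. The complete Ppard-201 took 29.9% and 47.5% of the TPM, and Ppard-204, a noncoding transcript of 417 bases, took 28.4% and 10.9% from 3 and 1 counts. Complete coding transcripts alone gave 0.69 and 0.91 TPM, which is below the threshold for an expressed gene.

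Pparg (ENSMUSG00000000440.12, chr6:115360951-115490399, plus strand) stood just inside that threshold at 1.02 and 1.92 TPM, 1.47 ± 0.636. It had 15 estimated counts in library 1 (95% exact Poisson interval 8.4 to 24.7, counting error only) and 43 in library 2 (31.1 to 57.9). The intervals did not overlap, and the difference passed the test (log2 ratio 1.46, exact binomial test, adjusted p = 0.00274). It was the only gene of the 10 higher in library 2 among those that passed.

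The TPM of Pparg differed less than its counts, as the effective length was 1182 bases in library 1 and 1718 in library 2. All 43 counts of library 2 were placed on Pparg-201, the complete transcript from the internal start (95% exact interval 91.8% to 100%), against 8.78 counts, 58.5% (32.3% to 83.7%), in library 1. The rest of library 1 lay on Pparg-204 and the incomplete Pparg-206, which took 16.7% and 43.0% of the TPM from 3.78 and 2.45 counts. Only 126 windows of 50 bases set Pparg-201 apart.

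Markers of other cells that can express Pparg were measured beside it. Of 4 adipocyte markers 0 were expressed, with summed levels of 0.68 and 0.09 TPM and Cfd at 0. Of 6 dendritic markers only Zbtb46 was expressed, at 2.69 and 3.19 TPM, above Pparg itself, while Itgax was at 0. Siglech, of the dendritic list, had 11 and 24 counts, and Adgre1, a macrophage marker, had 5 and 12. Both had more in library 2, as for Pparg, though neither passed (exact binomial test, adjusted p = 0.124 and 0.304). Other myeloid markers went the other way, with Csf1r (44.24 and 11.75 counts) and Fcgr3 (11 and 1) passing as higher in library 1. Itgam (21 and 20) and the dendritic marker Flt3 (3 and 2) were about level. The part of dendritic and myeloid cells in the Pparg difference was not tested.

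Of 11 genes known to respond to the fatty acid sensors, 7 were expressed. Acadm, an enzyme of mitochondrial fatty acid oxidation, was the highest at 34.93 and 28.57 TPM, and Angptl4 the lowest of the expressed at 2.98 and 4.53. Complete coding transcripts made only 5.7% and 1.1% of the Angptl4 TPM in library 1 and library 2. The adipocyte target Fabp4 had 0 counts in both libraries, and Cd36, a fatty acid transporter, had 0 and 7. Ppara, the liver form of the receptor, had 1 and 4 counts.

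Vdr (ENSMUSG00000022479.15, chr15:97854425-97910630, minus strand) was the lowest of the genes, at 0.34 and 0.18 TPM, 0.26 ± 0.113, from 11 (95% exact Poisson interval 5.49 to 19.7) and 10 (4.8 to 18.4) estimated counts. The count was above the limit of detection in both libraries, so the transcript was detected at a low level. Almost all of it was placed on the complete Vdr-201, with 10.36 and 10 counts. Vdr-202, an incomplete transcript of 389 bases, reached 44.0% of the TPM in library 1 from 0.64 counts. The deposited intervals of Vdr, 0.436 to 2.14 TPM and 0.358 to 1.81 TPM, lie above its own TPM values, since they are centred on the posterior mean of 1.2 and 1.01 TPM, in which short transcripts without counts have a share.

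Of 4 genes for vitamin D enzymes and response, 0 were expressed. Cyp2r1, a hydroxylase of the first activation step, came closest at 1.47 and 0.81 TPM. Cyp27b1, which makes the active hormone, had 1 and 6 counts, Cyp27a1 had 0 and 1, and Cyp24a1, the most responsive known target of Vdr, had 2 and 0.

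Ahr (ENSMUSG00000019256.17, chr12:35497974-35535038, minus strand) stood at 4.69 and 4.3 TPM, 4.5 ± 0.276, from 281 and 308.51 counts (log2 ratio 0.11, exact binomial test, adjusted p = 0.592). Its complete transcript Ahr-202 took 97.7% (95% exact interval 95.4% to 99.2%) and 100% (98.8% to 100%) of the estimated counts. Ahr-203, a retained-intron transcript, took 14.4% of the TPM in library 1 from 6.47 counts and 0% in library 2. Gm48236, a noncoding gene on the opposite strand with 25 and 23.49 counts, shares 127 exon bases with Ahr and 1.27% of its 50-base windows, the largest share found for any of the 10 genes.

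Of the 6 Ahr partners, 5 were expressed, 2 of which are also on the chaperone list (Hsp90ab1 and Ptges3). Arnt, the DNA-binding partner, stood at 26.89 and 28.5, which is 5.73 and 6.63 times the level of Ahr. Arnt2 was at 3.22 ± 0.757 TPM. Ahrr, the repressor that Ahr induces, had 5 and 7 counts, slightly above the limit of detection.

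Of 7 genes known to respond to Ahr, 2 were expressed. Gpr15, a receptor that guides T cells to the colon, stood at 26.72 and 26.32 TPM. Tiparp, an ADP-ribosyltransferase induced by Ahr, stood at 7.12 and 4.01 TPM, with 305.74 and 206 counts (log2 ratio -0.6, exact binomial test, adjusted p = 5.6e-05). The cytochrome genes that are standard readouts of Ahr were at or near 0, with 1 and 0 counts for Cyp1a1, 4 and 0 for Cyp1b1 and 0 in both libraries for Cyp1a2. Nqo1 was just under the threshold at 0.96 and 0.76 TPM.

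**Figure D3:**
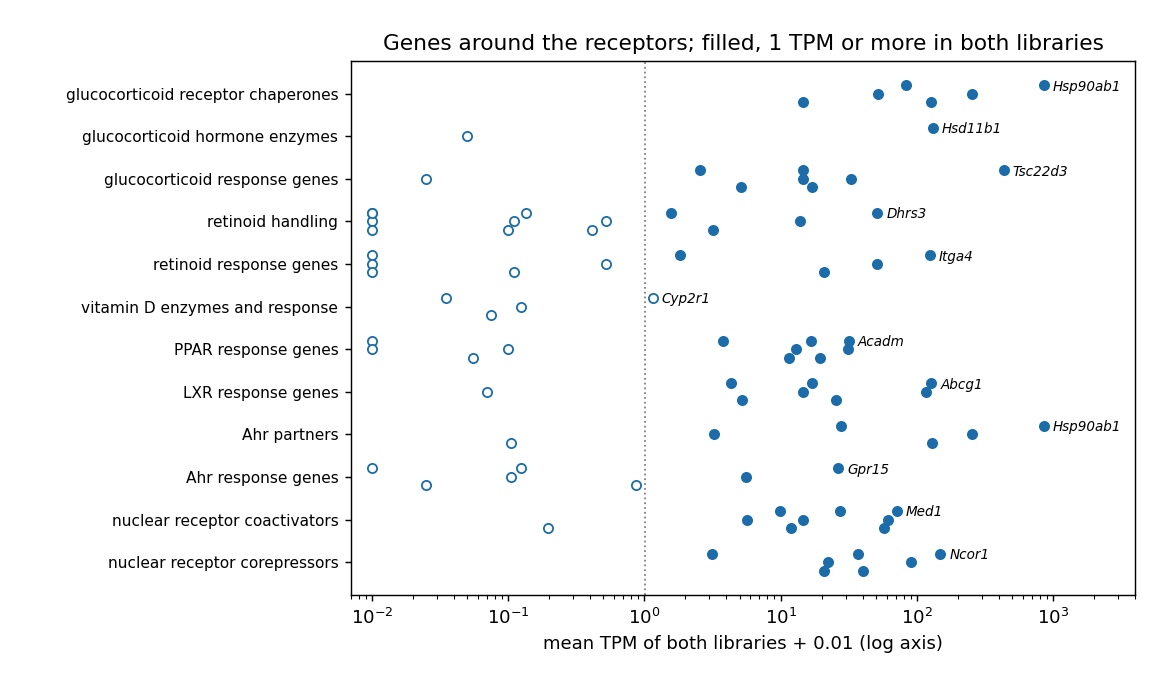
Mean TPM of both libraries plus 0.01 (log axis) for the genes of 12 lists around the receptors, each point a gene, filled where the gene reached 1 TPM in both libraries, with the highest gene of each list named and a dotted line at 1 TPM. All points of the chaperones and corepressors are filled, while the vitamin D list has none filled and the Ahr response list 2 of 7.

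Among the 49 nuclear receptor genes of the mouse that were listed, 23 were expressed and 10 had 0 estimated counts in both libraries. By mean TPM, Nr3c1 ranked 1, Nr1h2 4, Rarg 6, Rxrb 8 and Rara 9, followed by Rxra at 15, Ppard at 19, Pparg at 23 and Vdr at 28. The highest others were Nr2c2 (61.9 TPM), an orphan receptor, Nr4a1 (47.9 TPM), an early response gene of antigen receptor signalling, and Rora (27.1 TPM). In library 2, Nr2c2, at 64.26 TPM, was above Nr3c1. Complete coding transcripts made only 31.1% and 23.2% of the Nr2c2 TPM in library 1 and library 2. They made 49.8% and 46.3% for Nr3c1 and 93.1% and 94.4% for Nr4a1. The smaller gene tables held 287 and 332 counts of Nr2c2, 1001 and 931 of Nr3c1 and 884 and 764 of Nr4a1. The order of Nr3c1, Nr2c2 and Nr4a1 therefore depends on which transcripts are accepted. Ahr is no member of this superfamily and was left out of the ranking.

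**Figure D4:**
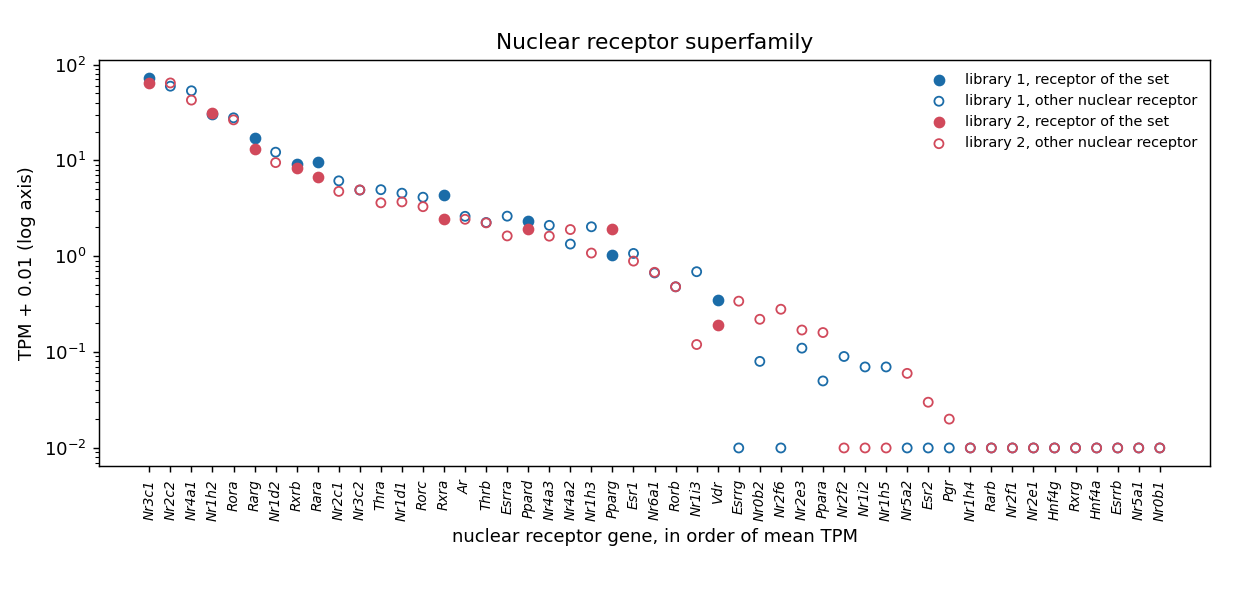
TPM plus 0.01 (log axis) of 49 nuclear receptor genes in order of mean TPM, filled for the 9 described here and open for the others, in library 1 and library 2. Nr3c1 is at the left end and Vdr, ranked 28, lies where the libraries begin to disagree about which genes are detected.

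Coregulators were expressed more evenly than the receptors. Of 9 coactivators 8 were expressed, from Med1, the Mediator subunit that nuclear receptors contact, at 71.7 ± 1.39 TPM down to Ppargc1b at 5.62 ± 0.481. Ppargc1a, the cold- and fasting-induced coactivator, had 2 and 12 counts. All 7 corepressor genes were expressed. Ncor1, which holds histone deacetylase on receptors without ligand, was the highest at 149 ± 5.06 TPM, followed by Gps2 (90.8), Nrip1 (40.3), Hdac3 (36.8), Tbl1x (22.2) and Tbl1xr1 (22.98 and 19.06 in library 1 and library 2). Complete coding transcripts made only 12.4% and 11.6% of the Ncor1 TPM, against 70.9% and 79.3% for Gps2. The lead of Ncor1 therefore rests on transcripts without a complete coding sequence.

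In order of mean level, the genes ran Nr3c1, Nr1h2, Rarg, Rxrb, Rara, Ahr, Rxra, Ppard, Pparg and Vdr. Neighbours were taken as separate where both libraries of the higher gene lay above both libraries of the lower. By that measure Rxrb and Rara were not separated, nor were Ahr and Rxra, nor Ppard and Pparg. The other neighbours were. The relative spread was smallest for Nr1h2 (coefficient of variation 1.53%) and largest for Vdr (43.5%), Pparg (43.3%) and Rxra (39.1%).

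To compare library 1 with library 2, the estimated counts of each gene entered an exact binomial test, two-sided and adjusted by the Benjamini-Hochberg method over all 17458 genes tested. All 10 genes were tested. Of them 3 passed at 0.05, beside 25.1% of all genes tested. Nr3c1 and Rxra were higher in library 1, as were 13.4% of all genes tested, and Pparg was higher in library 2, as were 11.8%. Pparg alone also differed at least 1.5-fold, which 8.82% of all genes did. For Nr3c1 the difference that passed was small (log2 ratio -0.15, adjusted p = 0.00124, exact binomial test). The median absolute log2 ratio was 0.13 over the 10 genes and 0.22 over all genes tested, and Rxrb (0.04), Ppard (0.07) and Vdr (-0.16) had adjusted p of 0.898, 0.912 and 0.929.

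These p-values are too small as evidence of a difference in RNA, because the libraries varied beyond counting error, with a common coefficient of variation of 13.0% in edgeR. The dispersion behind that value was estimated from the same libraries taken as 1 group, so the differences under test were counted in it. With that dispersion in edgeR's exact test, 0 of the 10 genes passed after adjustment and 1 (Pparg) had an unadjusted p below 0.05. The adjusted p in edgeR's exact test was 0.0943 for Pparg and 0.625 for Rxra. In the smaller gene tables, Nr3c1 had 1001 and 931 counts and did not pass (exact binomial test, adjusted p = 0.408). Rxra had 51 and 16 counts there (log2 ratio -1.63, adjusted p = 0.000861) and Pparg 14 and 40 (log2 ratio 1.49, adjusted p = 0.00722), so both kept their direction and call. Within the superfamily, 9 of 28 genes tested passed the binomial test, beside 25.1% of all genes tested, and 8 of the 28 were higher in library 1, beside 13.4%. Those with a difference of at least 1.5-fold outside the genes described here were Nr1h3, Nr1i3, Nr4a3 and Esrra, all higher in library 1.

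In the lists around the receptors, counts of genes that passed are given beside 13.4% of all genes tested for higher in library 1 and 11.8% for higher in library 2; most are small numbers near those shares. Higher in library 2 were 4 of 6 chaperone genes and 3 of 6 Ahr partners, which share Hsp90ab1 and Ptges3. Higher in library 1 were 2 of 5 retinoic acid response genes tested, 1 of 6 retinoid handling genes, 1 of 7 oxysterol response genes and 1 of 4 Ahr response genes. The other lists were mixed or had none: 2 glucocorticoid response genes passed in each direction of 7 tested, 1 in each direction of 7 for the fatty acid response genes and of 7 for the corepressors, and 2 coactivators were higher in library 1 and 1 in library 2 of 9. Hsd11b1 and Cyp2r1, the only genes of their lists with enough counts to be tested, did not pass.

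**Figure D5:**
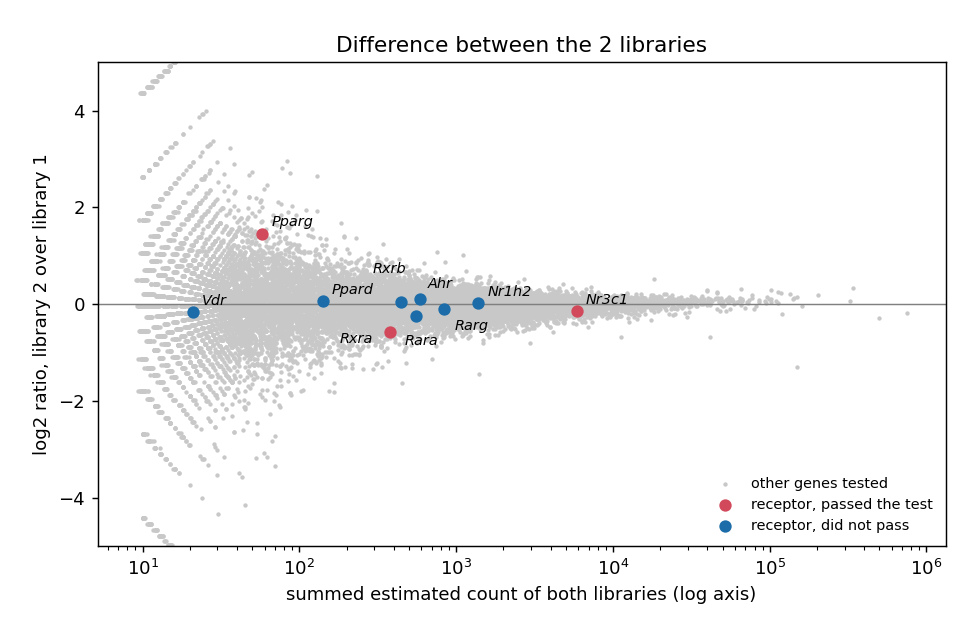
Log2 ratio of library 2 over library 1 against the summed estimated count (log axis) for 17458 genes (grey, with 88 genes beyond the vertical range not drawn) and the 10 genes described here, red where the exact binomial test passed. Pparg lies above 0 at 58 summed counts, Rxra and Nr3c1 below 0, and the other 7 genes between -0.25 and 0.11.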

How the data were processed

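PolyA plus RNA-seq was measured in 2 technical libraries of 1 biological sample, which form 1 group. The larger gene tables and the transcript tables use the GENCODE M21 annotation on mm10, per the deposited readme texts, and their columns bear RSEM's names, per the file headers. Aligner, versions and strand setting: not given in the sources used here. The authors' estimated counts (expected counts) are unscaled values per feature. The deposited TPM values are scaled by length and over all features of a table, and the deposited FPKM values by length and depth. Transcript shares are the deposited percent of gene TPM, per the file headers. The interval bounds and posterior SDs, a signal never below 0, were deposited with them, as was the effective length in bases, without a stated interval level. The smaller gene tables hold whole-number counts, deposited with the GENCODE M4 annotation, from an earlier alignment; their totals were 3746426 and 3680387.

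Symbols, positions and biotypes came from GENCODE M21 by identifier, matching 55536 genes and 141862 transcripts. Features that are no annotated gene, with 0.176% and 0.169% of the estimated counts, were left out.  The libraries were compared with an exact two-sided binomial test (scipy 1.17.1) of each gene's rounded estimated counts given their sum, where that sum was at least 10. TMM-scaled library sizes set the expected share (edgeR 4.0.16, R 4.3.3). Adjustment was by Benjamini-Hochberg over all genes tested. Log2 ratios are library 2 over library 1. In a test on simulated data with counting error only, 200 genes were changed each time, drawn from those with a summed count of 50 or more. Recovery thus does not cover genes with lower counts, such as Vdr. Changes of 1.5-fold were recovered for 134 of the 200 (17521 genes tested, 8 false calls). Recovery was 169 for 2-fold changes (17521 genes, 9 false calls) and 199 for 4-fold changes (17519 genes, 12 false calls). Shares and low counts have 95% exact intervals. Alternatives were other count scalings (DESeq2 1.42.0 size factors), count filters, levels, tables and single libraries.

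The genes described, the pathway lists and the marker lists were chosen with earlier results of these data known. Named were the 10 genes, their transcripts with 10% or more of the TPM in either library, from each list the highest and the lowest expressed gene, all genes of lists with 8 or fewer members, close paralogs and partners, the 3 highest other nuclear receptors, and list genes that passed with a 1.5-fold difference. Rdh11, Stra6, Aldh1a1, Aldh1a2, Aldh1a3, Cyp26a1, Cyp26b1, Ccr9, Fabp4, Cd36, Ppargc1a and the single markers were named after their values were seen. Some list genes that this rule takes are not reported here. Summed levels of stroma and epithelium markers were 4.56 and 3.54 TPM, with Epcam expressed. Promoter windows came from RefSeq entries on GRCm38.p6, which held 8 of the 10 genes.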

Additional observations from a re-analysis of the deposited data

How the results depend on the processing

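No paired analysis was possible because the libraries form 1 group. The test between libraries has 1 library on each side, so leaving out a library gives no value for it. Of the 10 genes, 5 reached 5 TPM in both libraries, and 7 reached 1 TPM on complete coding transcripts, an alternative chosen after seeing the data. The median was 5.02 in FPKM, which scales all genes down alike. With edgeR's common dispersion 0 genes differed between the libraries after adjustment, and 1 differed when a 1.5-fold difference was also required. Other scalings and filters kept 3, and the smaller gene tables gave 2. Over all genes, calls fell from 4384 to 364 with the common dispersion and to 1172 in the smaller tables. Of 45 pairs of genes, 42 to 45 kept their order of levels under the alternatives. The leading transcript was that of the mean in 6 to 10 of the 10 genes when a library was left out; in library 1 alone Pparg, Ppard, Rara and Nr1h2 had another. Levels of single genes moved by more than their SD in 35 of 80 alternatives. The 80 include each library alone, whose value cannot depart from the mean by more than that SD. All 35 therefore came from the other alternatives. Depth limits Vdr and Pparg, with 10 to 43 counts a library.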

Other observations

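Hsd11b1, the gene of the glucocorticoid-regenerating enzyme, had several annotated starts in use. Hsd11b1-205, a complete coding transcript of 1355 bases from the most upstream start, took 62.5% (95% exact interval 60.4% to 64.6%) and 66.5% (64.4% to 68.5%) of the estimated counts in library 1 and library 2. Hsd11b1-201, a complete transcript from an internal start, took 19.0% (17.3% to 20.7%) and 21.9% (20.1% to 23.7%). No annotated gene shares exon bases with Hsd11b1.

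The smaller whole-number gene tables held 23.2% as many counts as the larger tables over all genes, but the receptors were retained unevenly. Pparg kept 93.3% and 93.0% of its estimated counts there, with 14 and 40, and Nr1h2 59.5% and 61.7%. Ppard kept 11.8% and 9.59%, with 8 and 7 counts, and Ahr 21.7% and 22.4%. The counting rule of these tables is not given in the sources used here, and the reason was not tested.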
